A study of Mus musculus with 15 samples.

Results

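The unfolded protein response and the integrated stress response were followed in mouse liver through 40 genes, all of which were found among the 57132 gene identifiers of the deposited count table and all of which had enough reads to be tested. The genes were listed by name, with earlier results of these data known. A chaperone branch of 22 genes held the folding, disulfide, degradation and sensor genes tied to ATF6, IRE1-XBP1 and PERK, and an ATF4 branch of 18 genes held the transcription factors, feedback genes, amino acid enzymes, secreted hormones and surface receptor that lie downstream of PERK and its sister kinases.

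Bulk liver RNA came from male C57BL/6J mice that were 8 weeks old when feeding began. The Chow group ate standard chow for 18 weeks. The Vehicle and SR9009 groups ate a high-fat diet without choline, with defined amino acids (CDA-HFD), for the same 18 weeks, a regimen used to produce fatty, inflamed and fibrotic liver. For the last 6 weeks the Vehicle group was injected daily into the peritoneum with the solvent (15% Kolliphor ELP in saline) and the SR9009 group with SR9009 at 100 mg/kg/day. The compound SR9009 activates the REV-ERB nuclear receptors, which repress transcription and form part of the circadian clock. Injections of Chow mice are not mentioned in the labels, so diet and injection cannot be told apart in any comparison with Chow. The hour at which livers were taken is not stated either. The arms held 10, 15 and 15 of 40 mice; the libraries analysed here were 4 Chow, 5 Vehicle and 5 SR9009, and Chow replicate 5 was not analysed here.

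Proteins that enter the secretory pathway fold in the endoplasmic reticulum (ER), and hepatocytes, which export most plasma proteins, carry a heavy load of them. When unfolded proteins build up, the membrane sensors ATF6, IRE1 (gene Ern1) and PERK (gene Eif2ak3) respond. ATF6 and the XBP1 form spliced by IRE1 raise chaperone and degradation genes, whereas PERK phosphorylates eIF2, which lowers general translation and favours translation of ATF4. The kinases GCN2, PKR and HRI converge on the same eIF2 site after amino acid shortage, viral RNA or mitochondrial and heme stress, so ATF4 can be translated without stress in the ER.

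The known DNA elements of these branches were looked up in the promoters because the expression data are read by the same branches. RefSeq promoter sequences (GRCm38.p6; the submitters' processing notes name GRCm39 for the counts) were at hand for 36 of the 40 genes, and the 250 bases before each start were searched on both strands. The ER stress element (ERSE), bound by ATF6 and XBP1 with NF-Y, was present in 8 of 19 chaperone branch genes (42.1%), against 35 of 27025 genes in the whole table (0.13%) and 0 of 17 ATF4 branch genes. The 8 genes were Calr, Canx, Creld2, Dnajc3, Hsp90b1, Hspa5, Pdia6 and Syvn1. The second form of that element (ERSE-II) was found in Herpud1 and in 0.037% of all genes. The C/EBP-ATF response element, TGATGNAA, was present in 5 of 17 ATF4 branch genes (29.4%; Asns, Atf3, Chac1, Fgf21 and Vldlr), in 1 of 19 chaperone branch genes (Herpud1) and in 3.91% of all genes. The XBP1 core TGACGTGG was in none of the 36 windows and in 0.603% of all genes. The genes were listed for their known place in these branches, and the elements are those known for the same branches. A share above that of all genes was therefore set in advance and is no test of the branches. No searched motif contains another, and a match is a stretch of letters, not a measured binding site. Sequences are shown for 4 chaperone branch genes with ERSE, for Herpud1, which held both ERSE-II and the C/EBP-ATF element, and for Atf3, Asns and Fgf21, the ATF4 branch genes with a match that rose most on the diet. Each is the 150 bases before the start, read along the gene's strand, with the match in capitals; a match on the opposite strand appears as its reverse complement. Hsp90b1 has another match farther out that is not shown.
Hspa5, chr2:34771940-34772089, plus strand: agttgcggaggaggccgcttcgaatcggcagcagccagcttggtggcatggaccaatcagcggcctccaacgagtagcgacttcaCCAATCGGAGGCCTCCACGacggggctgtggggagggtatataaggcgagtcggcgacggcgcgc
Hsp90b1, chr10:86705445-86705594, minus strand: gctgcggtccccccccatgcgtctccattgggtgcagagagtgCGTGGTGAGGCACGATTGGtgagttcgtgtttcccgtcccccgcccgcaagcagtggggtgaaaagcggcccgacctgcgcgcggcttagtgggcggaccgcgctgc
Creld2, chr15:88819496-88819645, plus strand: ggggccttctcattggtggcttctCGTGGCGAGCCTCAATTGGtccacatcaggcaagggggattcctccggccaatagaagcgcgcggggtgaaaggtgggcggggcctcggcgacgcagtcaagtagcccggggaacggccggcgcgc
Syvn1, chr19:6046426-6046575, plus strand: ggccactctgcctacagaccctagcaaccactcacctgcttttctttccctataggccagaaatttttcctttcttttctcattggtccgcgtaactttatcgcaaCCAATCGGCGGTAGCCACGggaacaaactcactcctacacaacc
Herpud1, chr8:94386279-94386428, plus strand: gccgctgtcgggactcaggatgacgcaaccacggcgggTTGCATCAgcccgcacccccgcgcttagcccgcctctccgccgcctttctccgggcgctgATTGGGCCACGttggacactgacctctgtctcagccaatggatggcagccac
Atf3, chr1:191183334-191183483, minus strand: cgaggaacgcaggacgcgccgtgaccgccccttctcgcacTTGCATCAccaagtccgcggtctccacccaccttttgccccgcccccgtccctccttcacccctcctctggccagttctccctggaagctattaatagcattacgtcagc
Asns, chr6:7693210-7693359, minus strand: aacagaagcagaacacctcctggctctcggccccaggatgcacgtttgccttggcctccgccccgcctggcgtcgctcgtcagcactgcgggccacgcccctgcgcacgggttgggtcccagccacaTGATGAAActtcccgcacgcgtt
Fgf21, chr7:45615491-45615640, minus strand: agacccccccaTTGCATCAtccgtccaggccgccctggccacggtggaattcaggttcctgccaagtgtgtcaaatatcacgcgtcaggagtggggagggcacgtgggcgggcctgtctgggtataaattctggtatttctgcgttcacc

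**Figure D1:**
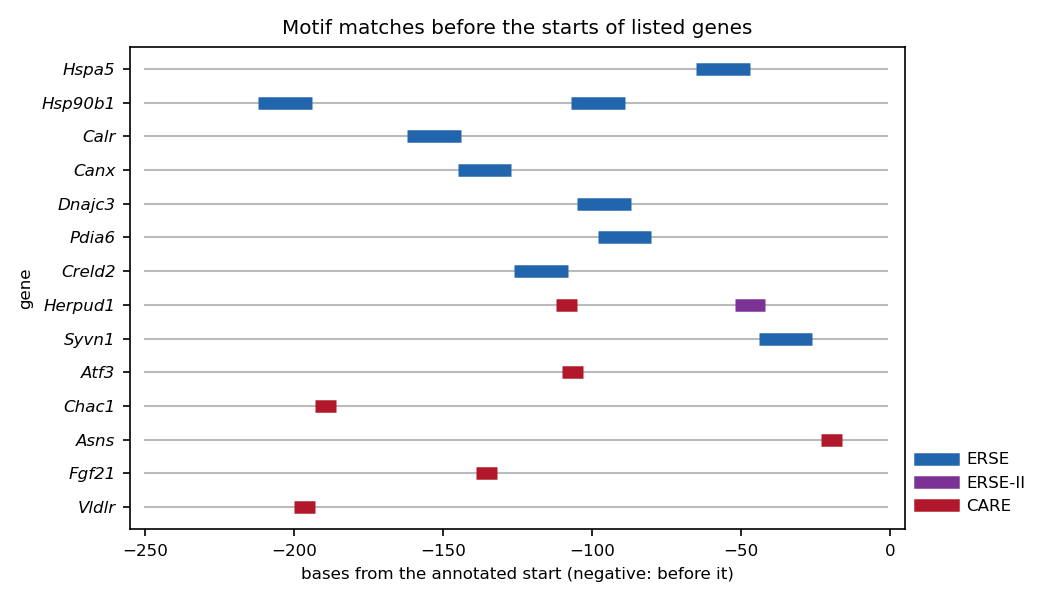
Position of each motif match in the 250 bases before the annotated start of the 14 genes with a match; the horizontal axis is distance from the start in bases and colour gives the element. ER stress elements (ERSE) lie only in chaperone branch genes, and the second form (ERSE-II) only in Herpud1. C/EBP-ATF elements (CARE) lie in 5 ATF4 branch genes and in Herpud1, which holds ERSE-II and CARE but no ERSE.

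Each library held 29950509 to 45542335 counts, and every listed gene had at least 4 counts in each library. Levels are given as CPM (counts scaled to a common total after TMM scaling of the library), a scaling that sets the bulk of genes level between libraries. A gene was called changed when its Benjamini-Hochberg adjusted p in edgeR's quasi-likelihood test, over 18181 tested genes, was under 0.05; fold changes are log2 with their standard error (SE). The TMM factors were 0.753 to 0.824 in Chow and 1.02 to 1.15 in diet-fed libraries. Scaling by library totals instead moved the median log2 change of all genes in Vehicle versus Chow from 0.023 to 0.503, so directions in comparisons with Chow are relative to the scaling. In Vehicle versus Chow, by library totals, Atf6 turned to 0.34 (adjusted p = 0.00708) and Ppp1r15a to 0.36 (adjusted p = 0.0462), both then called higher. Dnajb9 turned to 0.10, Ern1 to 0.08 and Atf4 to 0.25, none of them called. Some libraries had reads in many genes for olfactory, vomeronasal and trace amine receptors, which liver is not known to use: 150 to 231 of 1752 such genes had a count in Vehicle 1, 2 and 3 and SR9009 2, 4 and 5, against 45 to 105 in the other 8, all Chow libraries among them. Nothing in the labels says that the libraries of a group came from separate mice, so p-values measure the spread between these libraries.

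Livers of the Vehicle group had less chaperone branch RNA and more ATF4 branch RNA than Chow livers. In the chaperone branch 18 of 22 genes fell, 1 rose (Eif2ak3) and 3 were not called (Dnajb9, Atf6 and Ern1), with a median log2 change of -1.10. In the ATF4 branch 12 of 18 rose, 1 fell (Shmt2) and 5 were not called (Atf4, Ppp1r15a, Chac1, Ddit4 and Gdf15), with a median of 1.09. Across all tested genes 55.2% were called, 29.8% higher and 25.4% lower, and the median was 0.023. Vehicle and Chow libraries did not overlap for 17 chaperone branch genes that were lower and 1 that was higher, against 20.7% and 24.7% of all genes; in the ATF4 branch 9 did not overlap as higher and 1 as lower. Scaled by library totals, the chaperone branch gave 15 lower and 2 higher (Eif2ak3 and Atf6), and the ATF4 branch 14 higher and 1 lower, where 57.1% of all genes were higher and 7.58% lower. With a term for the receptor-gene class of the library the counts were 18 lower and 1 higher, and 11 higher and 1 lower.

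**Figure D2:**
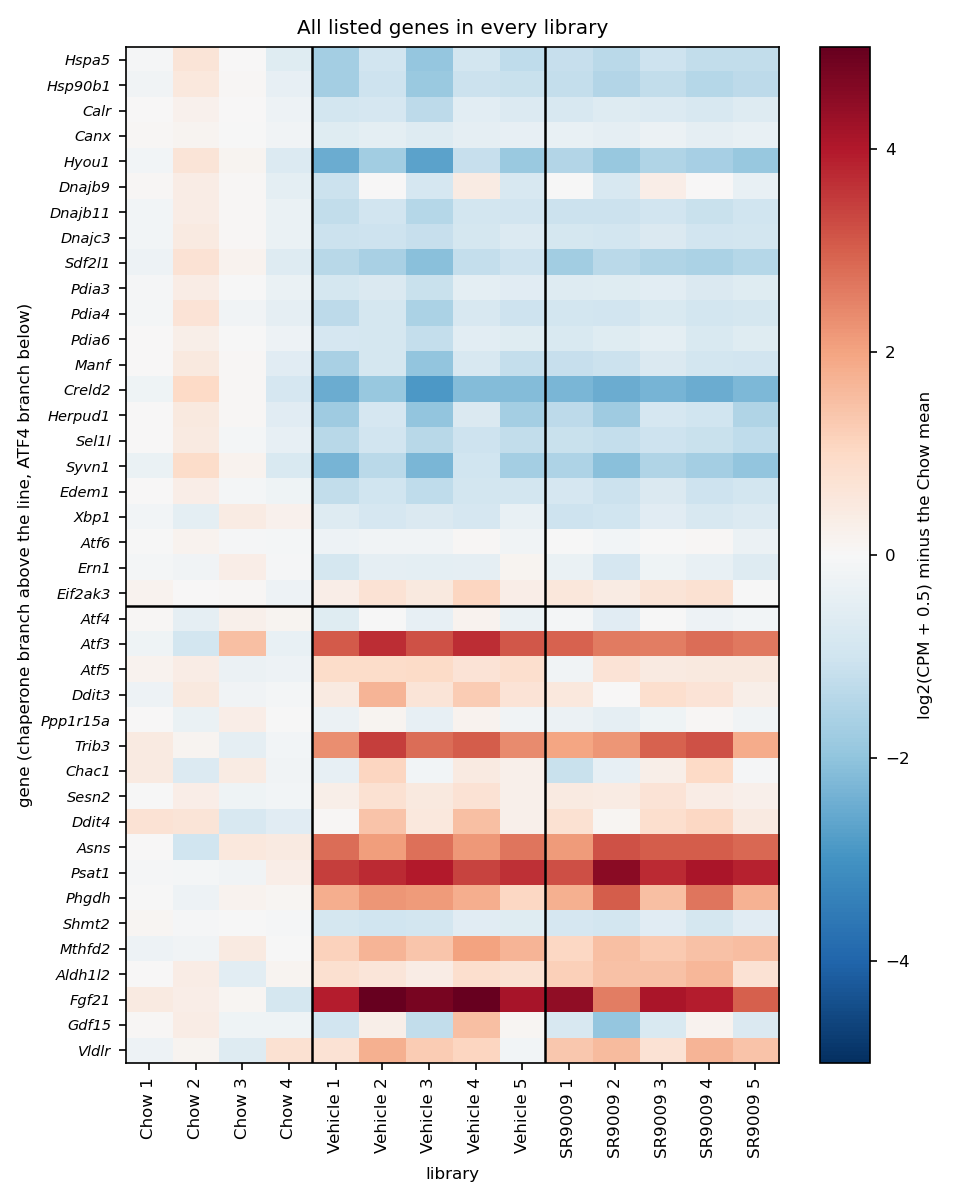
Level of each of the 40 genes in each of the 14 libraries, as log2(CPM + 0.5) minus the Chow mean; blue is below and red above that mean, and the horizontal line parts the chaperone branch (top) from the ATF4 branch. Most chaperone branch rows are blue and most ATF4 branch rows red across the diet-fed libraries; Dnajb9, Atf6, Ern1, Atf4, Ppp1r15a, Chac1, Ddit4 and Gdf15 are the rows not called in Vehicle versus Chow.

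Among the 9 ER folding chaperones 8 fell. Hspa5, which encodes the main ER chaperone BiP, stood at 1887, 3010, 1996 and 1262 CPM in Chow, 594, 994, 512, 1025 and 797 CPM in Vehicle and 871, 754, 948, 839.5 and 819 CPM in SR9009. Every diet-fed library lay below every Chow library, with Chow 2 highest and Chow 4 lowest of the Chow group. The log2 change in Vehicle versus Chow was -1.38 ± 0.23, adjusted p = 0.000112, a level 2.60-fold lower. Hsp90b1, the ER member of the HSP90 family, measured 814, 1332, 953 and 699.8 CPM in Chow, 283, 454, 255, 438 and 424 CPM in Vehicle and 408, 337, 388, 342 and 372 CPM in SR9009. It was 2.56-fold lower in Vehicle (-1.36 ± 0.19, adjusted p = 2.42e-05), again without overlap.

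The co-chaperones Dnajb11 and Dnajc3 had the smallest p-values of that role. Dnajb11, an ER DnaJ protein that works with BiP, was at 176, 248, 201 and 152 CPM in Chow, 81.8, 96.9, 70.8, 99.8 and 97.5 CPM in Vehicle and 89.7, 89.5, 98.6, 89.0 and 95.4 CPM in SR9009. Its log2 change was -1.12 ± 0.13, adjusted p = 2.13e-06. Dnajc3, a DnaJ protein also known as p58IPK, was at 399.8, 599.6, 461 and 351 CPM in Chow, 209.7, 219, 201, 244 and 279 CPM in Vehicle and 244, 238, 270.1, 229 and 238 CPM in SR9009, a change of -0.97 ± 0.14, adjusted p = 1.62e-05. For both genes the lowest Chow library exceeded the highest diet-fed library. Hyou1, an ER relative of HSP70 that exchanges the nucleotide of BiP, had the largest fall of the role, from 586 ± 222 CPM (SD, n = 4) in Chow to 150.2 ± 64.0 CPM (SD, n = 5) in Vehicle (-1.97 ± 0.30, adjusted p = 6.38e-05).

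Of the lectin chaperones that hold glycoproteins during folding, Calr changed by -0.84 ± 0.13, adjusted p = 5.86e-05 and Canx by -0.52 ± 0.08, adjusted p = 6.72e-05. The Canx level was 507, 544, 484 and 427 CPM in Chow, 324, 344, 315, 361 and 364 CPM in Vehicle and 379, 356, 399.7, 359 and 375 CPM in SR9009, without overlap between Chow and the diet-fed groups. Its call was lost when libraries were scaled by their totals (-0.04, adjusted p = 0.634). Sdf2l1, a component of the BiP complex, fell by 1.53 on the log2 scale (adjusted p = 0.000122). Dnajb9, a DnaJ protein that restrains IRE1, was the exception: its Vehicle libraries ran from 47.3 to 133 CPM around Chow libraries of 70.8 to 130 CPM (log2 change -0.38 ± 0.31, adjusted p = 0.314).

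All 3 protein disulfide isomerases fell; these enzymes form and rearrange disulfide bonds in the ER. Pdia4 stood at 378, 649, 353 and 296 CPM in Chow, 162, 218, 134, 228 and 197 CPM in Vehicle and 209.5, 205, 234, 209.7 and 218 CPM in SR9009, a log2 change of -1.16 ± 0.20, adjusted p = 0.000134. Pdia6 was at 526, 641, 509 and 435 CPM in Chow, 291, 286, 231, 359 and 348 CPM in Vehicle and 307, 341, 369.8, 312 and 346 CPM in SR9009, and changed by -0.80 ± 0.13, adjusted p = 7.29e-05. Pdia3, which acts with the lectin chaperones on glycoproteins, was at 759, 1029, 779 and 632 CPM in Chow, 426, 483, 363, 559 and 527 CPM in Vehicle and 501, 518, 550.1, 479.6 and 520.1 CPM in SR9009, and changed by -0.76 ± 0.14, adjusted p = 0.000195. None of the 3 overlapped between Vehicle and Chow, and each had its highest Chow value in Chow 2 and its lowest Vehicle value in Vehicle 3. Under library-total scaling Pdia3 was no longer called (-0.29, adjusted p = 0.0703).

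Both secreted proteins of the response fell. Creld2, a disulfide-linked ER protein released on ER stress, had the largest fall of the branch: 125, 289, 149 and 79.4 CPM in Chow, 25.6, 37.9, 19.0, 32.0 and 31.9 CPM in Vehicle and 29.3, 25.3, 28.2, 25.1 and 29.8 CPM in SR9009. The lowest Chow library, at 79.4 CPM, exceeded the highest Vehicle library, at 37.9 CPM, and the SR9009 libraries lay within 25.1 to 29.8 CPM. Its log2 change in Vehicle was -2.46 ± 0.30, adjusted p = 1.06e-05, or 5.48-fold lower. Manf, a small trophic factor that leaves the ER when calcium falls, was at 203, 283, 207 and 133 CPM in Chow, 63.7, 107, 49.9, 114 and 86.8 CPM in Vehicle and 89.5, 94.8, 121, 104 and 101 CPM in SR9009 (-1.29 ± 0.23, adjusted p = 0.00028).

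The 4 genes of ER-associated degradation, which returns misfolded proteins to the cytosol for the proteasome, all fell. Syvn1, the ubiquitin ligase HRD1, stood at 175, 416, 253 and 132 CPM in Chow, 44.4, 87.0, 45.8, 111 and 67.9 CPM in Vehicle and 76.0, 51.7, 77.1, 68.6 and 55.6 CPM in SR9009. Its Chow libraries spread over 132 to 416 CPM and still did not meet the Vehicle libraries (-1.78 ± 0.33, adjusted p = 0.00046). Sel1l, the partner that holds HRD1 in the membrane, was at 329, 446, 303 and 243 CPM in Chow, 122, 167, 123, 156 and 136 CPM in Vehicle and 149, 142, 155, 149 and 135 CPM in SR9009 (-1.23 ± 0.14, adjusted p = 2.57e-06). Edem1, which takes mannose-trimmed glycoproteins out of the folding cycle, was at 320.3, 393, 292 and 269.8 CPM in Chow, 133, 159, 132, 166 and 167 CPM in Vehicle and 177, 151, 189.7, 153 and 167 CPM in SR9009 (-1.08 ± 0.12, adjusted p = 1.34e-06). Both were lower in every Vehicle library than in any Chow library. Herpud1, a membrane scaffold of the same complex, went from 282 to 577 CPM in Chow to 106 to 252 CPM in Vehicle (-1.35 ± 0.29, adjusted p = 0.00114).

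Of the 3 sensor genes Eif2ak3 rose and the other two were not called in the edgeR test. Atf6 was at 97.5 to 119 CPM in Chow and 87.6 to 110 CPM in Vehicle (-0.14 ± 0.09, adjusted p = 0.217), and was called higher by library totals (0.34, adjusted p = 0.00708). Ern1, which encodes IRE1, was at 128, 120.2, 169 and 131 CPM in Chow, 73.1, 101, 96.9, 100.5 and 148 CPM in Vehicle and 107, 76.2, 118, 106 and 85.7 CPM in SR9009; Vehicle 5 lay within the Chow values and the gene was not called (-0.40 ± 0.17, adjusted p = 0.065). Ern1 was called lower by DESeq2 (adjusted p = 0.0467) and without Vehicle 5 (-0.56, adjusted p = 0.00457), and by library totals it stood at 0.08 (adjusted p = 0.701). Eif2ak3, which encodes PERK, was at 27.6, 24.9, 25.6 and 20.1 CPM in Chow, 30.9, 40.2, 34.0, 52.1 and 30.6 CPM in Vehicle and 36.0, 32.8, 38.8, 41.3 and 24.2 CPM in SR9009. It was the only chaperone branch gene that rose under TMM scaling (0.61 ± 0.17, adjusted p = 0.007), and the 5 Vehicle libraries lay above the 4 Chow libraries. Xbp1, whose spliced messenger encodes the active factor, was at 383, 299.9, 547 and 479 CPM in Chow, 269, 231, 249.9, 234 and 318 CPM in Vehicle and 202, 210.1, 281, 241 and 262 CPM in SR9009. Its fall (-0.71 ± 0.16, adjusted p = 0.00105) came with 1 overlap, Chow 2 below Vehicle 5, and was not called under library-total scaling (-0.23, adjusted p = 0.158). Gene counts do not separate spliced from unspliced Xbp1.

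**Figure D3:**
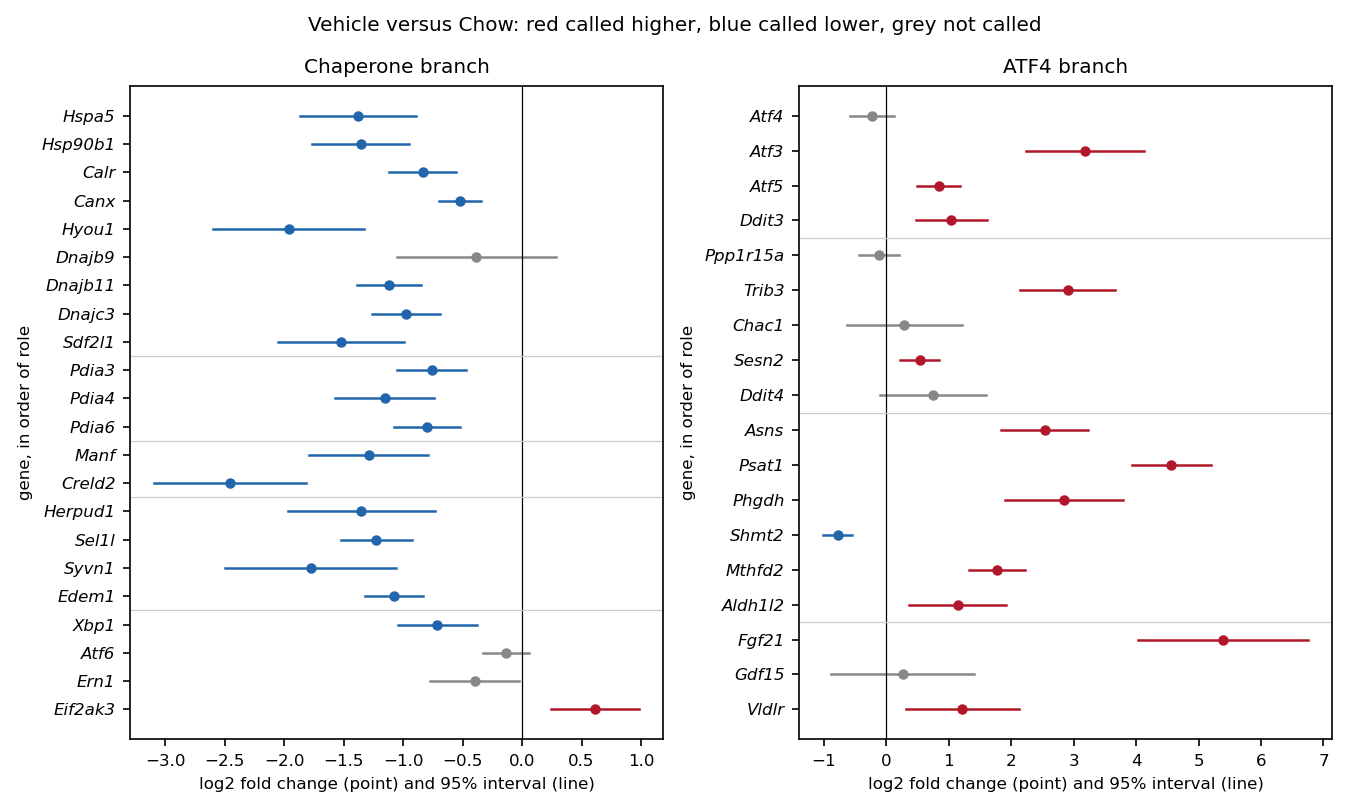
Log2 fold change (point) and 95% interval (line) of each gene in Vehicle versus Chow, with the genes grouped by role and the chaperone branch left, the ATF4 branch right; the horizontal scales differ. In the left panel 18 genes lie below 0 and are called, and in the right panel 12 are called above 0, with Fgf21 at 5.39 and Psat1 at 4.56 farthest out.

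In the ATF4 branch, Atf4 itself was not called. Its level was 146, 102, 165 and 152 CPM in Chow, 92.0, 138, 104, 157 and 109 CPM in Vehicle and 128, 94.4, 136, 116 and 126 CPM in SR9009, and the groups overlapped (-0.23 ± 0.16, adjusted p = 0.243). ATF4 is controlled mainly by translation, which RNA counts do not measure. The other 3 transcription factors rose. Atf3, a stress-induced bZIP repressor, was at 3.09, 1.72, 11.4 and 2.68 CPM in Chow, 34.8, 52.9, 37.6, 53.7 and 35.3 CPM in Vehicle and 32.0, 25.0, 24.3, 28.5 and 25.3 CPM in SR9009. Chow 3 stood above the other Chow libraries and still lay under every diet-fed library; the log2 change was 3.18 ± 0.44, adjusted p = 4e-05, and 4.12 without Chow 3.

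Atf5, a bZIP factor linked to mitochondrial stress and abundant in liver, was at 346, 396, 255 and 262 CPM in Chow, 578, 584, 595, 494 and 559.5 CPM in Vehicle and 271, 503, 418, 430.3 and 438 CPM in SR9009. All Vehicle libraries exceeded all Chow libraries (0.84 ± 0.16, adjusted p = 0.000376). Ddit3, which encodes the death-linked factor CHOP, was at 5.86, 10.1, 6.22 and 6.55 CPM in Chow, 9.63, 23.8, 11.3, 17.6 and 11.6 CPM in Vehicle and 10.5, 7.15, 13.1, 11.6 and 8.67 CPM in SR9009. It rose (1.04 ± 0.27, adjusted p = 0.00404), with Vehicle 2 and Vehicle 4 highest, although Vehicle 1 lay below Chow 2.

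Of the 5 feedback and brake genes 2 rose. Trib3, a pseudokinase that dampens AKT and ATF4 signalling, was at 9.26, 7.36, 4.80 and 6.06 CPM in Chow, 35.4, 77.8, 49.7, 57.6 and 36.7 CPM in Vehicle and 27.9, 32.9, 55.3, 65.3 and 25.9 CPM in SR9009, with no overlap between Chow and either diet-fed group (2.90 ± 0.35, adjusted p = 1.19e-05). Sesn2, an inhibitor of mTORC1 in amino acid shortage, was at 8.49, 11.1, 7.45 and 7.83 CPM in Chow, 10.8, 15.0, 12.4, 14.5 and 10.4 CPM in Vehicle and 11.9, 11.6, 14.3, 11.3 and 10.3 CPM in SR9009, with overlap at Chow 2 (0.53 ± 0.15, adjusted p = 0.00581). Ddit4, another mTORC1 inhibitor, was at 14.3, 13.8, 4.77 and 5.61 CPM in Chow, 8.90, 23.8, 12.7, 25.3 and 10.4 CPM in Vehicle and 15.1, 9.24, 15.8, 18.2 and 11.9 CPM in SR9009 and was not called (0.74 ± 0.40, adjusted p = 0.127), except by library totals (1.24, adjusted p = 0.0137). The remaining genes overlapped as well: Ppp1r15a, the GADD34 subunit that guides eIF2 dephosphorylation, had a log2 change of -0.12 ± 0.15, adjusted p = 0.507, and was called higher by library totals (0.36, adjusted p = 0.0462). Chac1, which breaks down glutathione, had one of 0.29 ± 0.43, adjusted p = 0.595.

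Of the 6 amino acid and one-carbon enzymes 5 rose and 1 fell. Psat1, the aminotransferase of serine synthesis, was low in Chow and clear in every diet-fed library: 0.491, 0.458, 0.397 and 0.783 CPM in Chow, 10.8, 13.2, 15.7, 10.0 and 12.4 CPM in Vehicle and 9.14, 22.8, 13.0, 16.9 and 14.1 CPM in SR9009. A count of 3 was worth 0.0659 to 0.10 CPM in these libraries. The log2 change was 4.56 ± 0.29, adjusted p = 1.03e-08, or 23.7-fold. Phgdh, which opens serine synthesis, was at 0.351, 0.229, 0.463 and 0.412 CPM in Chow, 2.56, 3.48, 3.27, 2.49 and 1.24 CPM in Vehicle and 2.48, 6.48, 1.95, 4.99 and 2.35 CPM in SR9009, a 7.19-fold rise (2.85 ± 0.44, adjusted p = 5.59e-05). Asns, which makes asparagine, was at 5.30, 2.40, 7.88 and 7.50 CPM in Chow, 40.2, 24.4, 39.0, 25.5 and 36.9 CPM in Vehicle and 24.5, 52.6, 47.4, 47.1 and 42.4 CPM in SR9009, a 5.80-fold rise (2.54 ± 0.32, adjusted p = 1.57e-05). None of the 3 overlapped between Chow and the diet-fed groups.

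The mitochondrial one-carbon enzymes, which take the carbon of serine into folate, did not move together. Mthfd2 was at 2.07, 2.21, 3.74 and 2.52 CPM in Chow, 6.41, 9.58, 7.60, 11.8 and 9.44 CPM in Vehicle and 5.79, 8.24, 7.07, 8.07 and 8.55 CPM in SR9009, a 3.40-fold rise (1.77 ± 0.21, adjusted p = 3.77e-06). Aldh1l2, which oxidises formyl-folate, was at 0.421, 0.658, 0.132 and 0.495 CPM in Chow, 1.07, 0.871, 0.662, 1.11 and 1.02 CPM in Vehicle and 1.57, 1.99, 2.00, 2.39 and 0.995 CPM in SR9009, a rise of 1.14 ± 0.37, adjusted p = 0.015. Vehicle 3 lay just above Chow 2. Shmt2, which moves the serine carbon onto folate, was at 309.8, 281, 287 and 278 CPM in Chow, 158, 144, 154, 194 and 191 CPM in Vehicle and 161, 155, 196, 157 and 197 CPM in SR9009. It was the only ATF4 branch gene that fell (-0.78 ± 0.11, adjusted p = 1.52e-05), every diet-fed library lying below every Chow library.

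Fgf21, a hormone that liver releases in fasting and amino acid shortage, had the largest rise of the 40 genes. Its level was 1.58, 1.43, 1.16 and 0.33 CPM in Chow, 22.7, 87.1, 41.1, 65.1 and 26.3 CPM in Vehicle and 32.3, 8.49, 25.8, 23.1 and 11.7 CPM in SR9009. Vehicle 2 and Vehicle 4 were highest, and the lowest diet-fed library lay well above the highest Chow library (5.39 ± 0.63, adjusted p = 1.08e-05). Gdf15, a stress hormone that acts on the hindbrain, was at 51.0, 62.5, 42.0 and 42.0 CPM in Chow, 25.1, 60.2, 20.7, 138 and 51.6 CPM in Vehicle and 27.7, 12.3, 28.4, 55.1 and 29.7 CPM in SR9009. Vehicle 4 alone exceeded the Chow range, Vehicle 1 and 3 lay below it, and the gene was not called (0.26 ± 0.53, adjusted p = 0.7). Vldlr, a lipoprotein receptor, was at 1.05, 1.57, 0.695 and 2.64 CPM in Chow, 2.58, 5.91, 4.04, 3.38 and 1.22 CPM in Vehicle and 4.30, 5.03, 2.55, 5.55 and 4.45 CPM in SR9009. It was called (1.21 ± 0.42, adjusted p = 0.0245) with Vehicle 1 and Vehicle 5 within the Chow range. The call was lost without Chow 1 (adjusted p = 0.0702), without Chow 3 (adjusted p = 0.0769) and without Vehicle 2 (adjusted p = 0.0673). It was also lost with a term for the receptor-gene class of the library (adjusted p = 0.177).

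**Figure D4:**
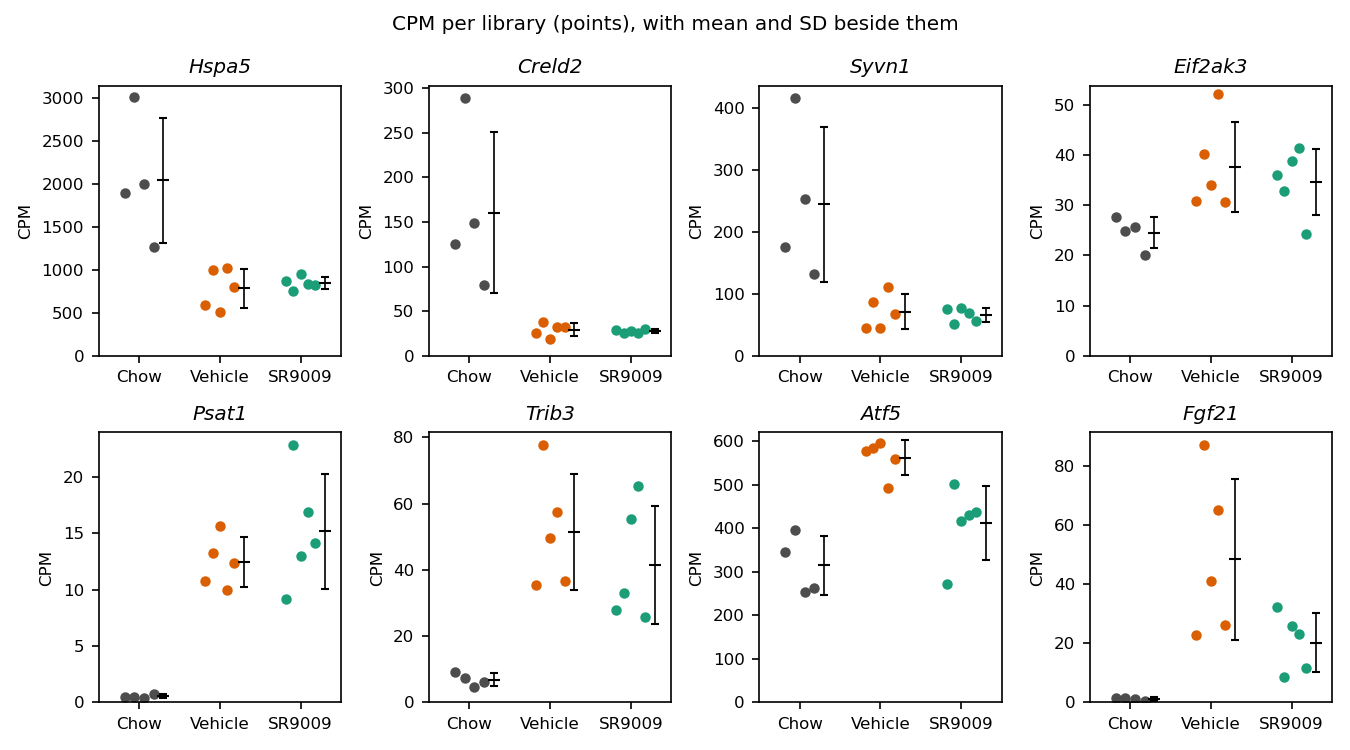
CPM of 8 genes in each library (points), with the group mean and SD beside them, for Chow (n = 4), Vehicle (n = 5) and SR9009 (n = 5); each panel has its own vertical scale from 0. Hspa5, Creld2 and Syvn1 are low in both diet-fed groups and Eif2ak3 is higher there. Psat1 and Fgf21 rise from near 0 and Trib3 from a Chow mean of 6.87 CPM. Fgf21 and Atf5 are lower on average in SR9009 than in Vehicle.

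Per kilobase of merged exons (GENCODE M21 gene models, GRCm38), levels of different genes can be set side by side. In Chow the highest levels were 517 CPM per kb for Calr, 482 for Hspa5 and 255 for Pdia3. Atf5 moved from rank 7 of the 40 in Chow (158 CPM per kb) to rank 2 in Vehicle (282 CPM per kb). Fgf21 moved from rank 35 (1.18 CPM per kb) to rank 12 (50.9 CPM per kb), while Aldh1l2 was rank 40 in all 3 groups. Psat1, despite its fold change, reached only 2.92 CPM per kb in Vehicle.

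Other genes of the same pathways were read as lists, against 25.4% of all genes lower and 29.8% higher by TMM and 7.58% lower and 57.1% higher by library totals. Of 39 further genes of ER folding, secretion and their control, 22 were lower in Vehicle than in Chow and 6 were higher. The median log2 change was -0.34, and by library totals 4 were lower and 15 higher. Ero1lb, an ER oxidase, fell by 1.51 on the log2 scale, Derl2, a degradation channel subunit, fell by 0.98, and Creb3l3, the hepatocyte factor CREBH, fell by 0.70. Dnajc10, an ER reductase, rose by 0.89 ± 0.07. Of 25 further ATF4 targets, 16 were higher and 4 lower, with a median of 0.91 (20 higher and 2 lower by library totals). Slc7a11, the cystine transporter, had no count in 3 Chow libraries and 0.0825 CPM in Chow 4, against 4.17, 3.83, 4.72, 2.57 and 4.31 CPM in Vehicle and 4.69, 7.42, 3.27, 5.44 and 3.79 CPM in SR9009. Slc7a1, which imports arginine and lysine, rose by 2.75, Aldh18a1 of proline synthesis by 2.82, and Pck2, the mitochondrial PEPCK, by 2.16. Of 12 cytosolic tRNA synthetases, which ATF4 also regulates, 7 were lower and 2 higher (1 lower and 5 higher by library totals). Tars fell by 1.13 on the log2 scale, Mars fell by 0.65, Aars fell by 0.57 and Gars rose by 0.53; Mars and Aars were not called by library totals.

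Markers of several cell types differed beside the stress genes. The 8 hepatocyte markers summed to 115900 to 158100 CPM in Chow, 91280 to 100500 CPM in Vehicle and 79640 to 99790 CPM in SR9009. Alb made up most of that sum, at a mean of 85470 CPM in Chow and 58990 CPM in Vehicle. Of the 8 markers, 5 fell in Vehicle and 3 were not called. The 8 macrophage markers summed to 114 to 406 CPM in Chow against 1756 to 2654 in Vehicle and 1566 to 2090 in SR9009, the 8 stellate markers to 187 to 254, 930.3 to 1303 and 865 to 1542, and the 6 cholangiocyte markers to 50.1 to 84.8, 413 to 979 and 460.3 to 1147. Spp1 made up most of the cholangiocyte sum, at means of 50.8 CPM in Chow, 637 in Vehicle and 718 in SR9009. All 6 cholangiocyte markers were called higher in Vehicle than in Chow. The 8 markers of B and plasma cells, secretory cells rich in ER, summed to 8.00 to 23.8, 9.16 to 25.7 and 9.29 to 27.2 CPM in Chow, Vehicle and SR9009. Of the 8 exocrine pancreas markers Cela1 made up nearly all of the sum in every library but Vehicle 2 (21.9 of 29.7 CPM), at 43.1 ± 4.92 CPM in Chow and 15.3 ± 4.05 CPM in Vehicle. Amy2a5 had no count in any library and Prss1 only in Vehicle 1, while Vehicle 2 held 3.98 CPM of Ctrb1, 1.39 of Pnlip, 1.11 of Cpa1 and 1.08 of Prss2. In bulk liver, fewer cells of a type and less RNA per cell cannot be told apart, and the part of cell makeup in the stress gene changes was not tested.

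SR9009 and Vehicle livers, which shared the diet and the daily injections, differed by the compound. None of the 40 genes was called in edgeR's test, against 0.242% of all tested genes (44: 0.165% higher and 0.077% lower); DESeq2 also called 0 of the 40. At an unadjusted p under 0.05 there were 0 chaperone branch and 4 ATF4 branch genes, where 7.28% of all genes passed. The median log2 change was 0.07 in the chaperone branch and -0.15 in the ATF4 branch, against 0.001 for all genes. Restricted to diet-fed libraries with few receptor genes the medians were -0.03 and -0.19, and to those with many 0.13 and -0.02, again with 0 called; this restriction was chosen after seeing the data. Some cell type markers also leaned between these groups, with no marker of the lists given here called in edgeR. At an unadjusted p under 0.05, 2 mesothelial, 1 cholangiocyte and 1 exocrine pancreas marker passed, and 0 red cell or neutrophil markers. The 6 cholangiocyte markers were all higher in SR9009 (median log2 change 0.24) and the 3 tested exocrine pancreas markers all lower (median -0.35). Of the 8 hepatocyte markers 6 were lower and 2 higher (median -0.11). The 4 mesothelial markers were all higher in SR9009 (median log2 change 1.40, 7.72 to 40.9 CPM summed in Vehicle and 16.9 to 78.3 in SR9009). The 5 red cell markers were all higher (median 1.14, 106 to 281 and 136 to 888 CPM), and the 4 tested neutrophil markers all lower (median -1.02, 15.1 to 78.0 and 16.6 to 24.4 CPM over 5 markers, Vehicle 2 the highest). By the median library, the neutrophil sum ran the other way, at 18.3 CPM in Vehicle and 20.8 CPM in SR9009. The red cell, cholangiocyte and macrophage sums went with the receptor-gene class of the library in both groups. In Vehicle the red cell sum was 243, 281 and 248 CPM in libraries 1 to 3 and 106 and 114 in libraries 4 and 5. In SR9009 it was 319.5, 475 and 888 CPM in libraries 2, 4 and 5 and 136 and 152 in libraries 1 and 3. In the same order, the cholangiocyte sum was 768, 891 and 979 against 594 and 413 CPM in Vehicle. In SR9009 it was 1147, 1142 and 804 against 616 and 460 CPM. The macrophage sum was 2654, 2121 and 2434 against 1756 and 1929 CPM in Vehicle. In SR9009 it was 2065, 2090 and 1852 against 1747 and 1566 CPM. The mesothelial sum went with the class in SR9009 (78.3, 71.1 and 74.5 against 18.3 and 16.9 CPM) but not in Vehicle. The part of these cell types in the values of the 40 genes was not tested.

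The intervals show which sizes the chaperone data leave room for. The SR9009 to Vehicle ratio of Hspa5 was 1.08 (95% interval 0.785 to 1.48) and that of Canx was 1.09 (0.975 to 1.23). Edem1 had a ratio of 1.11 (0.943 to 1.3), Pdia6 of 1.11 (0.924 to 1.32) and Manf of 1.21 (0.873 to 1.68). Canx, Edem1, Manf and Pdia6 had the smallest p-values of the branch, and their adjusted p-values ran from 0.801 to 0.895. For Syvn1, whose libraries scattered more, the interval ran from 0.581 to 1.47. Every one of the 22 intervals included 1, so no difference was resolved at this depth and number of libraries; that does not show that the groups were alike.

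**Figure D5:**
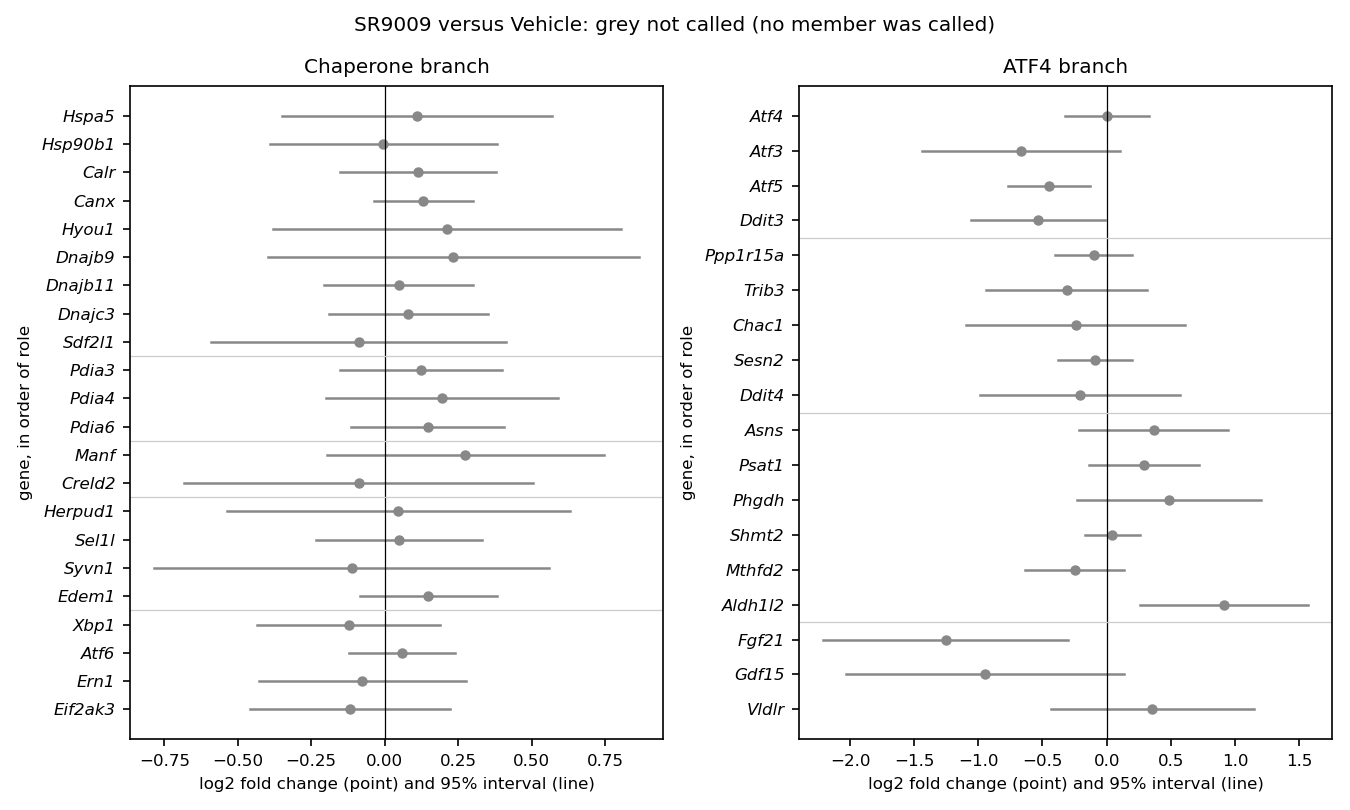
Log2 fold change (point) and 95% interval (line) of each gene in SR9009 versus Vehicle, by role, with the chaperone branch left and the ATF4 branch right; the horizontal scales differ. No gene is called; every chaperone interval spans 0, and Fgf21 (-1.26), Atf5 (-0.45), Ddit3 (-0.54) and Aldh1l2 (0.91) are the ATF4 branch genes whose intervals do not.

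The 4 ATF4 branch genes with an unadjusted p under 0.05 pointed in different directions. The mean of Fgf21 was 48.5 ± 27.3 CPM (SD, n = 5) in the Vehicle group. In the SR9009 group it was 20.3 ± 9.96 CPM (SD, n = 5), giving a ratio of 0.419 (0.216 to 0.811; adjusted p = 0.449). Both groups overlapped between 22.7 and 32.3 CPM. The Atf5 ratio was 0.733 (0.588 to 0.914; adjusted p = 0.38); SR9009 2 was the 1 library above the lowest Vehicle value. Ddit3 had a ratio of 0.69 (0.481 to 0.99; adjusted p = 0.659). Aldh1l2 had the opposite sign, at 1.88 (1.2 to 2.97; adjusted p = 0.388), and SR9009 5 was the 1 library inside the Vehicle range. Atf3 was the only listed gene whose libraries did not overlap, 24.3 to 32.0 CPM in SR9009 under 34.8 to 53.7 CPM in Vehicle, but it was not called (-0.67 ± 0.36, adjusted p = 0.77); 0.979% of all genes were lower without overlap. Gdf15 had a ratio of 0.518 (0.245 to 1.1), with Vehicle 4 at 138 CPM and SR9009 2 at 12.3 CPM as the extremes. The serine and asparagine enzymes lay above 1, at 1.22 for Psat1, 1.4 for Phgdh and 1.29 for Asns, none of them called.

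In the further lists no gene was called in SR9009 versus Vehicle by edgeR, while DESeq2 called P4hb and the mitochondrial Clpx. The 39 further genes of ER folding, secretion and their control leaned upward: 37 had a positive log2 change, against 50.3% of all genes. Their median was 0.21, and 13 of them passed an unadjusted p under 0.05, against 7.28% of all genes. They share the same few libraries, so these counts are a description without a test. P4hb, the archetypal disulfide isomerase, was at 1675, 1902, 1488, 1893 and 1792 CPM in Vehicle and 2036, 2090, 2496, 2064 and 2204 CPM in SR9009, without overlap (0.32 ± 0.10, adjusted p = 0.321), and was called by DESeq2 (adjusted p = 0.0407). Ppib, an ER prolyl isomerase, was at 52.8, 50.9, 40.5, 59.0 and 57.5 and 61.9, 60.3, 76.8, 62.0 and 63.5 CPM, also without overlap (0.32 ± 0.10, adjusted p = 0.336); 0.891% of all genes were higher without overlap. Leaving out each library in turn gave 33 to 38 positive genes, a median of 0.13 to 0.29 and 7 to 19 genes at an unadjusted p under 0.05. Within the libraries with few receptor genes 33 were positive and 3 passed that p; within those with many, 35 were positive and 16 passed. The 25 further ATF4 targets had a median of 0.03, and Soat2 and Cebpb, with the smallest p-values there, had log2 changes of -0.27 ± 0.11, adjusted p = 0.559 and -0.35 ± 0.16, adjusted p = 0.676. Among the tRNA synthetases Tars was lower without overlap but not called (-0.31 ± 0.09, adjusted p = 0.258).

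The scatter between libraries differed between the groups in the chaperone branch. The median coefficient of variation (SD over mean) of its 22 genes was 24.6% in Chow, 22.5% in Vehicle and 9.07% in SR9009, against 16.9%, 16.5% and 15.9% over all tested genes. It was smaller in SR9009 than in Vehicle for 20 of 22 chaperone branch genes and for 11 of 18 ATF4 branch genes, against 50.5% of all genes. The genes moved together within a group: Chow 2 was the highest Chow library for 19 of the 22 and Chow 4 the lowest for 20. In Vehicle, Vehicle 4 was highest for 13 and Vehicle 3 lowest for 15, and in SR9009 library 3 was highest for 15. Vehicle 4 and SR9009 3 had few receptor genes and Vehicle 3 had many. Vehicle 5, with few, was highest for 6, and Vehicle 1 and SR9009 2, with many, were lowest for 5 and 10. Against that order, Vehicle 2, with many, was highest for 3 and SR9009 1, with few, was lowest for 5. The part of the receptor-gene class in the scatter was not tested. The 22 genes share the same few libraries, so the counts are a description without a test.

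SR9009 livers were also compared with Chow, using the same 4 Chow libraries as above, so these values are not independent of those for Vehicle. In the chaperone branch 19 genes fell and 1 rose, and in the ATF4 branch 11 rose and 1 fell (56.2% of all genes called, 30.5% higher and 25.7% lower). By library totals the chaperone branch gave 14 lower and 2 higher (median -0.50 in place of -0.94) and the ATF4 branch 13 higher and 1 lower, where 54.8% of all genes were higher and 8.67% lower. Calr, Canx, Ern1, Pdia3 and Pdia6 were the falls no longer called. Creld2 changed by -2.54 ± 0.30, adjusted p = 7.38e-06 and Hspa5 by -1.27 ± 0.23, adjusted p = 0.000225, while Psat1 changed by 4.86 ± 0.30, adjusted p = 5.71e-09 and Fgf21 by 4.13 ± 0.61, adjusted p = 7.55e-05. Ern1 was called here (-0.48 ± 0.17, adjusted p = 0.0303) but not without Chow 3, SR9009 2 or SR9009 5. Ddit3 was not called here (0.50 ± 0.27, adjusted p = 0.122). Atf5 was barely called (0.39 ± 0.16, adjusted p = 0.0493) and was not called in 11 of 14 fits that each left out 1 library. Eif2ak3 (0.50 ± 0.17, adjusted p = 0.0231) lost its call without Chow 4, SR9009 3 or SR9009 4, and Sesn2 (0.44 ± 0.15, adjusted p = 0.0174) without Chow 3 or Chow 4. Canx, lower here by TMM (-0.39 ± 0.08, adjusted p = 0.000849), turned to 0.06 and was not called by library totals.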

How the data were processed

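Liver RNA from 14 libraries (4 Chow, 5 Vehicle, 5 SR9009) was analysed; each group was taken from the sample titles. Raw, unnormalized counts for each Ensembl gene were deposited by the authors. The submitters' processing notes name STAR 2.7.11b and the build GRCm39. How reads were counted, with which annotation and strand setting, was not given in the sources used here, so overlapping and antisense genes are uncertain. Symbols came from a name table and matched 51880 identifiers (90.8%). A second identifier named Ddit3 had 0 counts and was not used.

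Counts were tested with edgeR 4.0.16 in R 4.3.3: filterByExpr (minimum count 10, minimum total 15) kept 18181 genes, libraries were scaled by TMM, and a robust quasi-likelihood fit held all 3 groups. The Benjamini-Hochberg adjustment covered every tested gene. SEs are those that give the F statistic, intervals are 95%, and floors of 3 counts cover counting error only. The fit was also run on simulated counts in which a small share of genes was changed. That setting is unlike Vehicle versus Chow, where 55.2% of genes were called, so it does not test the fit there. Within groups, 26 library pairs differed by more than sampling noise (lowest chi-square 14.2 per gene), so none was merged. DESeq2 1.42.0, other scalings and filters, a replicate block, a receptor-gene class term and each library left out were tried.

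The 40 genes and all lists were chosen with earlier results of these data known. Values in every library are given for up to 3 genes per role with the smallest p in Vehicle versus Chow and up to 4 per branch in SR9009 versus Vehicle. Hspa5, Atf4, Asns and Phgdh were added after their values were seen. Up to 4 genes of each further list were named by p in Vehicle versus Chow and up to 2 in SR9009 versus Vehicle.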

Additional observations from a re-analysis of the deposited data

Results flagged for a closer look

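The values of the 40 genes in the 3 groups (120 groups of libraries) were searched for a library far from the rest of its group by Dixon's 95% limit. On the CPM scale 3 groups passed (2.5%): Atf3 in Chow 3, at 11.4 CPM with the next at 3.09; Ddit3 in Chow 2, at 10.1 CPM with the next at 6.55; and Atf6 in Vehicle 4, at 110 CPM with the next at 93.9. On the log2 scale 1 passed (0.833%), Asns in SR9009 1, at 24.5 CPM with the nearest at 42.4. None of the 4 passed on both scales, and chance flags about 1 in 20 groups.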

How the results depend on the processing

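In Vehicle versus Chow, leaving out each library gave 9248 to 10059 called genes, 19 to 20 chaperone branch and 12 to 13 ATF4 branch genes; in SR9009 versus Chow it gave 9450 to 10287, 19 to 20 and 10 to 13. In SR9009 versus Vehicle it gave 18 to 56 called genes around 44 and 0 of the 40 listed genes. That count was 212 with DESeq2, 15 with a replicate block, 78 with the receptor-gene class as a term and 23 within libraries with many receptor genes, added after the data had been seen; the cause was not tested. Each of these called 0 of the 40.

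Scaling by library totals moved the all-gene split in Vehicle versus Chow from 29.8% higher and 25.4% lower to 57.1% and 7.58%. It turned Dnaja3 in Vehicle versus Chow to 0.002 and Canx in SR9009 versus Chow to 0.058. Within libraries with few receptor genes Pdia6 in SR9009 versus Vehicle turned to -0.057. In that restricted fit 13 of the 22 chaperone branch genes had a negative change, against 7 in the main fit. None of Dnaja3, Canx and Pdia6 was called where it turned. No pairing by replicate number was seen: over 13 same-numbered pairs the correlation of deviations ran from -0.367 to 0.203. Of 14 libraries, 1 correlated best with its own number. These correlations run over all tested genes and could miss a weak pairing. With the replicate block 19 chaperone branch genes fell and 1 rose, and 12 ATF4 branch genes rose and 1 fell, in Vehicle versus Chow. Depth limits the low genes: Aldh1l2, Fgf21, Phgdh and Psat1 had as few as 4, 8, 8 and 12 counts in a library.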

Other observations

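Stress systems outside the ER were read from further lists, against 25.4% of all genes lower and 29.8% higher in Vehicle than in Chow by TMM, and 7.58% lower and 57.1% higher by library totals. Of 15 cytosolic heat shock genes, 10 were lower and 1 higher in Vehicle than in Chow, with a median log2 change of -0.47; by library totals 4 were lower and 4 higher. Hsph1, an HSP110 chaperone, was at 60.9 to 144 CPM in Chow and 21.5 to 34.2 CPM in Vehicle, and fell by 1.76 on the log2 scale (SE 0.21). The co-chaperone Stip1 fell by 1.14, Dnaja1 fell by 1.09 and Hsp90aa1 fell by 1.04. The gene that rose, named after its value was seen, was the inducible HSP70 gene Hspa1a (2.34 ± 0.46 SE), which has a near-identical copy, Hspa1b, so its counts are uncertain. In SR9009 versus Vehicle 0 of 15 were called in edgeR, 0 passed an unadjusted p under 0.05 and DESeq2 called 0.

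Genes that act on eIF2 and in mitochondria were read the same way. Of 15 genes for the other eIF2 kinases and the eIF2 machinery, 8 were lower and none higher in Vehicle than in Chow (median -0.22), and by library totals none was lower and 9 were higher, close to the share of all genes. Of 11 mitochondrial chaperones and proteases, 7 were lower and 1 higher (median -0.46), and by library totals 0 were lower and 4 higher. Clpx, the unfoldase of the ClpXP protease, was at 216, 180.4, 293, 245 and 234 CPM in Vehicle and at 132, 171, 155, 164 and 147 CPM in SR9009. Its libraries did not overlap; the log2 change was -0.60 ± 0.14 (adjusted p = 0.127 in edgeR), and DESeq2 called it (adjusted p = 0.00716), as did edgeR without Vehicle replicate 2 (adjusted p = 0.047).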
